A study of Rattus norvegicus with 8 samples.

Results

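The 9 genes described here encode the high affinity receptor for IgE and the proteins by which mast cells are recognised, and they were read in the middle colon of 16 rats fed one of 4 diets. They were chosen by name, with earlier results of these data known. All 9 had probes: 14 of the 30367 probes on the array, and 9 of the 19901 genes that were tested. Among leukocytes, 6 of them are grouped here as mostly mast cell genes, some of them shared with basophils: Fcer1a, Ms4a2, Kit, Hdc, Il1rl1 and Gata2. The grouping is loose for Il1rl1, which is also carried by ILC2, regulatory T cells and Th2 cells. The other 3, Fcer1g, Fcgr3a and Syk, are shared with macrophages, NK cells, neutrophils or B cells.

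The rats were female Wistar rats 6 weeks of age at the end, 4 per diet on the arrays out of 10 that received each diet for 3 weeks. The REF group ate the AIN-93M reference chow. The C10 group ate chow with 10 % cocoa, the CF group chow with cocoa fiber and little polyphenol, and the I group chow with inulin, a soluble fiber. A 5 mm piece of whole colon wall was taken from each rat, so the tissue holds epithelium, leukocytes, muscle and nerve together. Each of 8 arrays held 2 rats, 1 labelled with Cy5 and 1 with Cy3, and the labels place each rat on 1 array only. The methods speak of dye-swapped repeats of every RNA, which the labels do not show, so n = 4 per diet rests on the labels. All C10 rats were on the first 4 arrays and all I rats on the last 4, while REF and CF had 2 rats on each side.

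Mast cells carry IgE on a receptor made of an alpha chain that holds the antibody (Fcer1a), a beta chain that amplifies the signal (Ms4a2) and paired gamma chains that start it (Fcer1g). When antigen links the bound IgE, the kinase Lyn phosphorylates the beta and gamma chains, Syk docks on them, and the cell releases histamine, proteases and lipid mediators. The gamma chain also serves the IgG receptor Fcgr3a, and Fc receptors of macrophages and NK cells. In the gut wall, mast cells lie in the mucosa and the submucosa and depend on the growth factor receptor Kit and the transcription factor Gata2.

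Sequences upstream of the transcription start were in RefSeq (build GRCr8) for 7 of the 9 genes. All 250 bases before the start were searched on both strands for AGATAA, the core that GATA factors bind, for the E-boxes CATGTG and CACGTG, which Mitf can bind, for GAGGAA, the core of PU.1, and for TGTGGT, the core of Runx factors. Of 33469 rat promoters of that length, 10.3 % hold AGATAA, 12.1 % CATGTG, 5.59 % CACGTG, 23.3 % GAGGAA and 14.5 % TGTGGT. The promoters of 3 genes that fell in the C10 group are printed 5′ to 3′ to show these letters, which are in capitals as they stand on the gene's strand and do not overlap one another.
Fcer1a (chr13:88224730-88224929, minus strand, 200 bases): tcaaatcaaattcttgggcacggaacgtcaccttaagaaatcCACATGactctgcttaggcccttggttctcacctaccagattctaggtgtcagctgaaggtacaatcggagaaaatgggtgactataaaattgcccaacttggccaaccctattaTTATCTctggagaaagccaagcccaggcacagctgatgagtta
Hdc (chr3:134318705-134318954, minus strand, 250 bases): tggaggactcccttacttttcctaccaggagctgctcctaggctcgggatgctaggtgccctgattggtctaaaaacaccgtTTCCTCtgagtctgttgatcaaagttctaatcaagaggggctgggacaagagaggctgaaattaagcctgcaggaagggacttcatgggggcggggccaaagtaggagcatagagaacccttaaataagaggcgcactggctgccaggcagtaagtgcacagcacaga
Fcgr3a (chr13:85782386-85782635, plus strand, 250 bases): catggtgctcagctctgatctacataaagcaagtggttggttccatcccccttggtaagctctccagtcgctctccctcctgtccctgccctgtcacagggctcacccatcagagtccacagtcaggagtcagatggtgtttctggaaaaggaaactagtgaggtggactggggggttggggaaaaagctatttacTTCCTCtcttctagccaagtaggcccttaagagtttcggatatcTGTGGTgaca
For Fcer1a the bases next to the start were left out, because they lie inside the gene as RefSeq draws it. Fcer1a held AGATAA (as TTATCT) 93 bases and CATGTG (as CACATG) 208 bases before its start. Hdc held only GAGGAA (as TTCCTC), at 168 bases, and Fcgr3a held it at 54 bases beside TGTGGT at 10 bases. Of the genes that did not pass the test, Kit and Gata2 held none of these letters, Il1rl1 held TGTGGT at 152 bases and Syk held GAGGAA at 62 bases. A match of 6 letters is a description of the sequence and not a binding site.

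The share of spots well above the local background was 68.6 to 83.9 % in REF, 71.7 to 76.7 % in C10, 72.0 to 77.7 % in CF and 70.5 to 77.8 % in I, so detection did not separate the diets. The tested colon markers Epcam, Krt8, Krt20, Lgals4 and Cdx2 were well above background in all 16 rats. C10 rat 4 had the lowest signal of smooth muscle genes, a sum of 28930 over 5 genes against 86490 or more in the REF, CF and I rats. Signals are given below on the log2 scale after normalization and after the dye effect was taken out. The lowest signal that counted as well above background lay between 5.82 and 6.21 in each rat, so a fall towards that floor is understated. Fold changes come from a limma fit of all 16 rats in which rats on one array are correlated, and they therefore differ slightly from the difference of the group means. A gene passed when its p, adjusted by Benjamini-Hochberg over 19901 genes, was below 0.05. Exact permutation tests were two-sided, and 0.0286 is the smallest p that 4 rats against 4 can give.

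In the C10 group, 5 of the 9 genes fell against REF, and they were all 3 chains of the IgE receptor, the histamine-forming enzyme Hdc and the IgG receptor Fcgr3a. Of all genes tested, 0.608 % passed the test as lower in C10. In the same 5 genes, all 4 C10 rats lay below all 4 REF rats, which held for 2.09 % of all genes. These shares are given for scale and are no test of the 9 genes, which were chosen with earlier results of these data known. The median log2 fold change over the 9 genes was -0.67, and 0.013 over all genes. By class, 3 of the 6 mast cell genes and 2 of the 3 shared genes fell, with medians of -0.51 and -0.67, so the fall followed neither class as a whole. Only Hdc fell by 2-fold or more, as 0.181 % of all genes did. Without the offset in the background correction Fcer1a, Ms4a2 and Fcgr3a did so too. That fit called 115 of the 19901 genes as lower, and their share at 2-fold or more was not counted. The 3 added genes can therefore not be set against all genes. In whole tissue, fewer mast cells and less RNA per mast cell cannot be told apart.

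**Figure D1:**
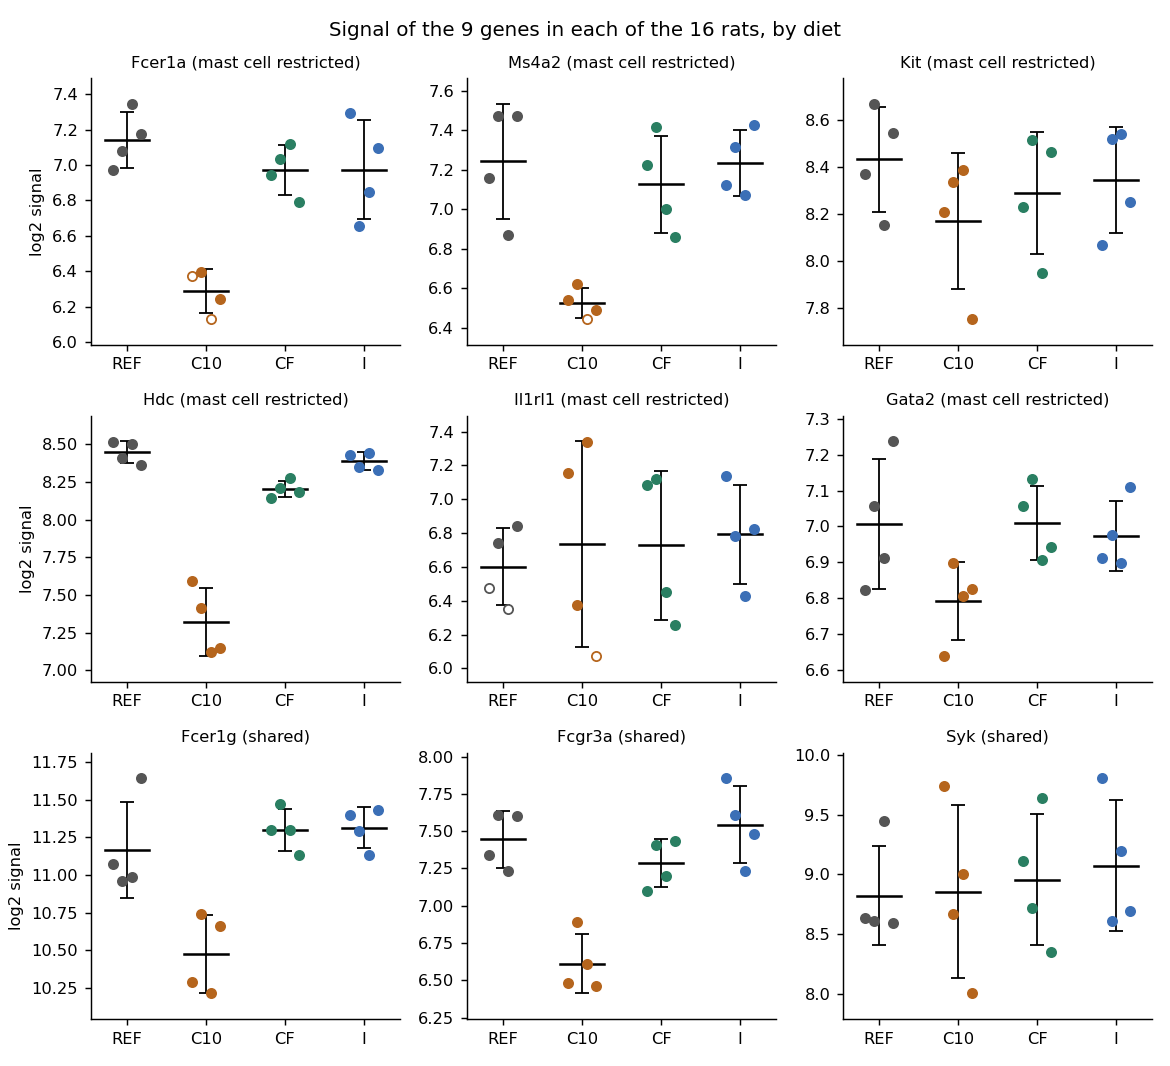
Normalized log2 signal (vertical axis, a different range in each panel) of each of the 9 genes in the 4 rats of each diet. Each point is 1 rat, open where the probe was not well above background, and the bar and whiskers are the mean and SD. The C10 points of Fcer1a, Ms4a2, Hdc, Fcer1g and Fcgr3a lie below every REF, CF and I point, whereas those of Kit, Il1rl1 and Syk overlap the other diets, although C10 rat 4 is the lowest of all 16 rats in each of these 3 genes.

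Fcer1a, the chain that holds IgE, gave 6.97, 7.08, 7.34 and 7.17 in REF rats 1 to 4 and 6.37, 6.40, 6.13 and 6.25 in C10 rats 1 to 4. The CF rats gave 6.94, 7.03, 7.12 and 6.79 and the I rats 7.30, 6.66, 6.85 and 7.10. The highest C10 rat was thus below the lowest rat of every other diet. The mean was 7.14 ± 0.16 (SD, n = 4) in REF and 6.29 ± 0.12 in C10, and the fitted log2 fold change was -0.81 (SE 0.11, limma adjusted p = 0.00517, exact permutation p = 0.0286), a 1.76-fold lower signal. The C10 values sat near the floor: the raw Cy5 signal of C10 rat 1 was 79.5 over a background of 65, and the probe was well above background in 2 of the 4 C10 rats and in all 12 others. With processed signals of the scanner software the fall read -2.74, and with no offset in the background correction -1.75 on the log2 scale, so its size is known only as a range. The other probe of this transcript, spotted 10 times per array, fell by 0.67 (SE 0.10, limma adjusted p = 0.00863).

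Ms4a2, the beta chain, gave 7.16, 7.47, 6.87 and 7.47 in REF and 6.54, 6.62, 6.44 and 6.49 in C10. It ranged from 6.86 to 7.42 in CF and from 7.07 to 7.43 in I. All C10 rats were again the lowest, and their spread (SD 0.076) was narrower than that of REF (SD 0.29). Its log2 fold change was -0.76 (SE 0.12, limma adjusted p = 0.0112), and without REF rat 2 the adjusted p rose to 0.0948. The fall read -1.41 with no offset and -1.83 with processed signals. The probe was well above background in 3 of the 4 C10 rats.

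Fcer1g, the signalling gamma chain, lay far above the floor in every rat. It gave 11.07, 10.96, 10.99 and 11.64 in REF and 10.29, 10.74, 10.22 and 10.66 in C10. The CF rats (11.13 to 11.47) and the I rats (11.13 to 11.43) overlapped the REF rats, and no C10 rat reached any of them. Its log2 fold change was -0.67 (SE 0.14, limma adjusted p = 0.0383), and its size hardly moved with the background treatment (-0.70 with no offset and -0.71 with processed signals). This call was close to the limit: it held in 5 of the 16 fits that left out 1 rat, and the adjusted p reached 0.0898 without C10 rat 1. A second probe of Fcer1g fell by 0.79 (SE 0.18) with a limma adjusted p of 0.0536.

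Hdc, the enzyme that makes histamine from histidine, had the smallest p of all 19901 genes in C10 against REF, against CF and against I. It gave 8.51, 8.41, 8.50 and 8.36 in REF and 7.59, 7.41, 7.12 and 7.15 in C10. The gap between the groups, from 7.59 to 8.36, was wider than the range within either of them. Its log2 fold change against REF was -1.09 (SE 0.077, limma adjusted p = 2.54e-05), a 2.12-fold lower signal, and it passed with any 1 rat left out, with adjusted p up to 0.000503. On arrays where a C10 rat was hybridised beside another rat, the C10 rat was lower by 0.92 and 0.99 than REF and by 1.02 and 1.06 than CF, with the dyes swapped between the arrays of each pair.

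In the CF rats Hdc gave 8.15, 8.21, 8.28 and 8.18, and in the I rats 8.43, 8.35, 8.44 and 8.33. All 4 CF rats lay below all 4 REF rats, as was true of 0.985 % of all genes, and below all 4 I rats, as was true of 0.568 %. The fitted differences were small, -0.17 against REF (SE 0.083, limma adjusted p = 0.8) and -0.15 against I (SE 0.077, limma adjusted p = 1), and did not pass. The order of Hdc levels was thus REF, I, CF and C10, with only C10 beyond its neighbour by the test.

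Fcgr3a, a low affinity IgG receptor that signals through the gamma chain, gave 7.34, 7.61, 7.23 and 7.60 in REF and 6.49, 6.89, 6.61 and 6.46 in C10. It gave 7.10, 7.40, 7.20 and 7.43 in CF and 7.85, 7.61, 7.23 and 7.48 in I. Its log2 fold change was -0.85 (SE 0.12, limma adjusted p = 0.00545), and it passed with any 1 rat left out. It was well above background in all 16 rats, yet its fall also depended on the background treatment, at -1.47 with no offset and -1.84 with processed signals.

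The remaining 4 genes did not pass in any comparison. Kit, the receptor for stem cell factor, gave 8.37, 8.67, 8.15 and 8.55 in REF and 8.21, 8.34, 8.39 and 7.75 in C10. The groups overlapped, and its log2 fold change was -0.27 with a 95 % interval from -0.61 to 0.07. That interval does not reach the falls fitted for Fcer1a, Ms4a2, Hdc, Fcer1g and Fcgr3a, although the difference in change between genes was not tested. Kit is also the defining receptor of the interstitial cells of Cajal, the pacemaker cells of gut muscle. Their chloride channel Ano1 had means of 12.36 ± 0.27 in REF and 12.55 ± 0.21 in C10.

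Gata2, which keeps mast cells in their fate, gave 6.82, 7.06, 6.91 and 7.24 in REF and 6.64, 6.90, 6.81 and 6.83 in C10. Its log2 fold change was -0.22 (95 % interval -0.38 to -0.06, limma adjusted p = 0.156). The C10 rats lay below every CF rat (6.91 to 7.13) but overlapped the REF rats.

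Il1rl1, the receptor for the alarm cytokine Il33, was dim and uneven. The probe used gave 6.47, 6.74, 6.35 and 6.84 in REF and 7.15, 6.38, 7.34 and 6.07 in C10, so the C10 rats spanned the whole range of the other diets. The log2 fold change was 0.026 with an interval from -0.53 to 0.58. The second probe, drawn for another RefSeq transcript (NM_001127689 in place of NM_013037), gave 6.39 to 6.55 in REF and 6.20 to 6.39 in C10, with a log2 fold change of -0.14 (SE 0.058, limma adjusted p = 0.234). The direction thus differed between the probes, and the second was well above background in 1 of the 4 C10 rats.

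Syk, the kinase that docks on the gamma chain, gave 8.64, 8.61, 9.45 and 8.59 in REF and 9.74, 8.67, 9.01 and 8.01 in C10. It gave 9.11, 8.72, 9.64 and 8.35 in CF and 9.80, 8.61, 9.20 and 8.69 in I. High and low rats were found on every diet. Its log2 fold change in C10 was 0.13 with an interval from -0.53 to 0.79, and 2 other probes of the transcript gave 0.021 and -0.023.

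In the CF and I groups no member passed the test against REF. Among the 9 genes, 0 passed in CF and 0 in I against REF, where limma called 0 % of all genes in each, and 0 of the 9 had an unadjusted p below 0.05 in either. Over all genes, 1271 had an unadjusted p below 0.05 in CF and 1136 in I, and rank product called 0 of the 9 in both, against 0.678 % of all genes in CF and 0.367 % in I. Hdc in CF was the only member to lie wholly below REF, and 0 members did so in I, as 1.35 % of all genes did. The 95 % interval of Fcer1a was -0.39 to 0.13 in CF and -0.41 to 0.07 in I. Between CF and I, limma called 0 of the 9 genes and 0 % of all genes, and 1 member had an unadjusted p below 0.05: Fcgr3a, 0.28 lower in CF on the log2 scale (limma adjusted p = 1). These comparisons share rats, since REF serves all 3 diets.

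The comparison of C10 with CF sets whole cocoa beside its fiber. The paper reports that the C10 rats gained less weight than the other groups. That difference is part of the comparison, and its share in the values was not tested. By the probe used for each gene, the same 5 genes fell in C10 against both fiber diets. Against CF, 5 of the 9 fell where 0.347 % of all genes did, and all 4 C10 rats lay below all 4 CF rats in 6 (Gata2 being the sixth) where 2.55 % of all genes did. Against I, 5 of the 9 fell where 0.392 % of all genes did, and 5 lay wholly below where 3.17 % did. The log2 fold changes against CF were -0.68 for Fcer1a, -0.67 for Ms4a2, -0.92 for Hdc, -0.81 for Fcer1g and -0.65 for Fcgr3a. Against I they were -0.64, -0.82, -1.06, -0.81 and -0.93 in the same order. The other probe of Fcer1a gave -0.47 against CF and -0.51 against I and did not pass (limma adjusted p = 0.0625 and 0.0613). The second probe of Fcer1g gave -0.79 and -0.83 and did not pass either (limma adjusted p = 0.0727 and 0.0878). With 1 rat left out, only Hdc against both diets and Fcgr3a against I passed in all 16 fits. The other calls were less secure. Leaving out 1 rat left from 1 to 5 genes against CF, with 1 (Hdc) without C10 rat 3, CF rat 1, CF rat 2 or CF rat 3. In these 4 fits the genes called in either direction over the whole array went from 86 to 6, 3, 3 and 7. Against I it left from 2 to 5, with 2 (Hdc and Fcgr3a) without I rat 2 or I rat 4, where the count over all genes went from 109 to 22 and 33. C10 and I never shared an array set (the first or the last 4 arrays), and the main fit has no term for the set. Their difference in that fit therefore includes any difference between the sets. With the array set as a term, 2 genes (Hdc and Ms4a2) passed against CF and against I. Over all genes, that fit called 42 against CF and 20 against I.

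Within arrays 1 to 4 alone, the mean of the C10 rats minus that of REF rats 1 and 2 was -0.74 for Fcer1a, -0.79 for Ms4a2, -1.14 for Hdc, -0.54 for Fcer1g and -0.86 for Fcgr3a. These values are close to the fits over all arrays. Kit gave -0.35 and Gata2 -0.15 in the same arrays.

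**Figure D2:**
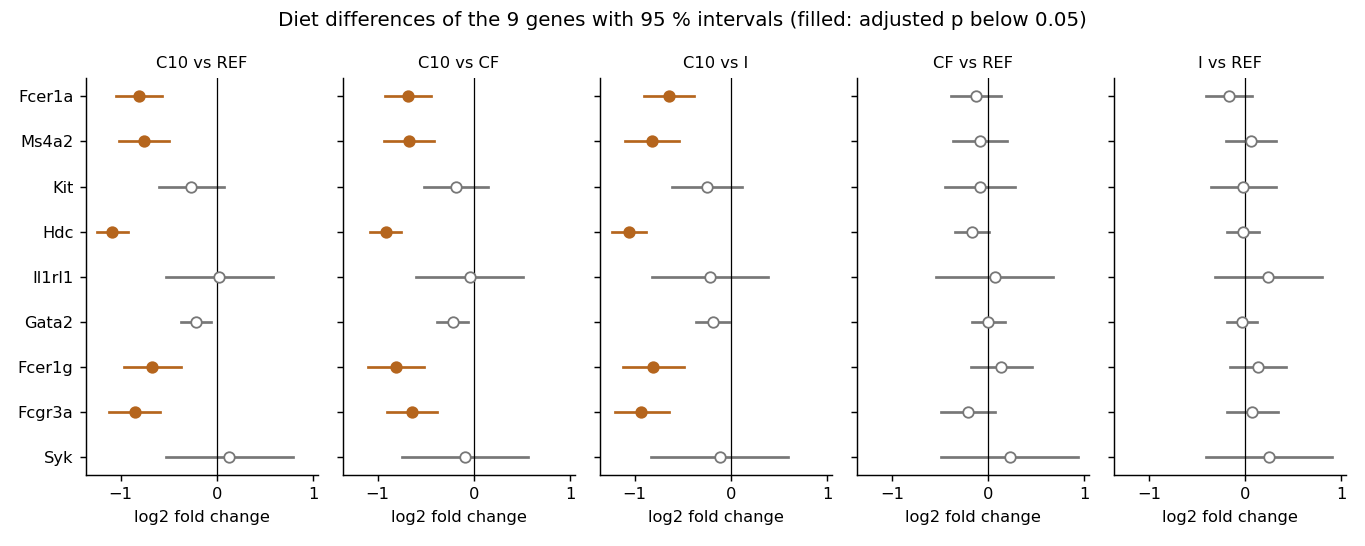
Fitted log2 fold changes (horizontal axis) of the 9 genes in 5 comparisons, with 95 % intervals as lines. Filled points passed at an adjusted p below 0.05. The same 5 genes are filled in each C10 panel, from -0.64 to -1.09, and none is filled for CF or I against REF.

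Other genes of mast cells were set beside them. For the counts at an unadjusted p below 0.05 given below, 17.1 % of all genes reached it in C10 against REF. Of 12 tested mast cell proteases, which are stored in the granules, 8 fell in C10 against REF and 0 rose, with a median log2 fold change of -1.43. The log2 fold change was -2.49 for Mcpt1 (SE 0.32), -1.73 for Mcpt9, and -1.71 for both Mcpt10 and Mcpt8. The tryptases Tpsab1 and Tpsb2 gave -0.006 and 0.012 and did not pass. Both were dim, with REF means of 6.37 and 6.72, so the room for a fall was small. Tpsab1 was well above background in 9 of the 16 rats. A brighter tryptase, Tpsg1 (REF mean 10.96), gave -0.21 and did not pass (limma adjusted p = 0.535). The proteases are close relatives, so single values among them are uncertain where a probe could bind several.

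Of 8 genes for lipid mediators of mast cells, 2 fell and 0 rose. They were Hpgds, which makes prostaglandin D2 (by 0.57, SE 0.12, limma adjusted p = 0.0383), and Ltc4s, which makes leukotriene C4 (by 0.34, SE 0.067, limma adjusted p = 0.0332). Of the histamine genes other than Hdc, limma called 0 of 5 (1 at an unadjusted p below 0.05, Aoc1): the breakdown enzyme Aoc1 gave -0.74 (limma adjusted p = 0.0903), the vesicle transporter Slc18a2 -0.26, and the receptors Hrh1, Hrh3 and Hrh4 0.004 to 0.081.

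Of 26 signalling genes downstream of the receptor, among them Lyn, Fyn, Lat, Btk and Plcg2, limma called 0 in C10 against REF (2 at an unadjusted p below 0.05). Of these genes, 18 were higher and 8 lower, with a median of 0.045. Most of these kinases and adaptors also serve B cells and T cells. Of 12 genes for growth and fate of mast cells, 1 fell, the receptor chain Crlf2 (by 0.33, limma adjusted p = 0.0493), and 0 rose. Kitlg, the ligand of Kit, gave -0.080 and Mitf -0.19, and Il33 gave 0.076. Of 5 tested inhibitory receptors of mast cells 0 passed (0 at an unadjusted p below 0.05, median -0.098), and of 7 other Fc receptors besides Fcgr3a 0 passed (2 at an unadjusted p below 0.05, median 0.076). Of the latter, Fcrl2, named after its values were seen, gave -2.01 (SE 0.45, limma adjusted p = 0.0505), with means of 8.70 ± 0.77 in REF and 6.85 ± 0.82 in C10.

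Markers of cells that share Fcer1g and Fcgr3a were lower too in part. Of 12 macrophage genes 11 were lower in C10 than in REF, with a median of -0.45, and 7 had an unadjusted p below 0.05. By the test 1 fell, Siglec1 (by 0.83, SE 0.099, limma adjusted p = 0.00301). Tyrobp, a signalling adaptor like the gamma chain, gave -0.55 (limma adjusted p = 0.0765), Cd68 -0.41 and Csf1r -0.19. Against CF and against I, 8 of the 12 had an unadjusted p below 0.05, where 13.5 % and 12.2 % of all genes did. In both, 2 fell by the test, Siglec1 and Tyrobp (limma adjusted p = 0.0393 and 0.0492 for Tyrobp). The summed macrophage signal was 33090 to 44680 in REF and 24420 to 36770 in C10. Of 6 NK cell genes 1 fell, Nkg7 (by 0.82, SE 0.14, limma adjusted p = 0.018), while Klrd1, Klrk1, Gzmb and Prf1 did not pass and Ncr1 was too dim to test. The part of macrophages or NK cells in the fall of Fcer1g and Fcgr3a was not tested.

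Over 11 lists of other cell types, limma called 0 of 53 genes in C10 against REF. Of the 53, 12 had an unadjusted p below 0.05, where 17.1 % of all genes did. Among the 12 were 5 enteroendocrine and 4 smooth muscle genes. For basophils, which also carry Fcer1a, 0 of 4 tested genes passed (median -0.089). B cell genes had a median of 0.61 (0 of 4 passed), T cell genes 0.19 (0 of 5), pan-leukocyte genes 0.24 (0 of 5), and the genes of regulatory T cells and ILC2 0.048 (0 of 7, with Foxp3 at 0.053). Neutrophil (0 of 4), eosinophil (0 of 2), endothelial (0 of 6, Pecam1 0.19) and colon epithelial genes (0 of 7) likewise did not pass. Enteroendocrine genes, some of whose cells hold Hdc in the stomach, had a median of -0.98 with 0 of 5 called (Chga -0.98, limma adjusted p = 0.186). Of these, 4 were lower, Tph1 the most (-1.36, limma adjusted p = 0.0822), and 1 was higher, Neurod1 (0.22). Smooth muscle genes had a median of -0.83 with 0 of 5 called.

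**Figure D3:**
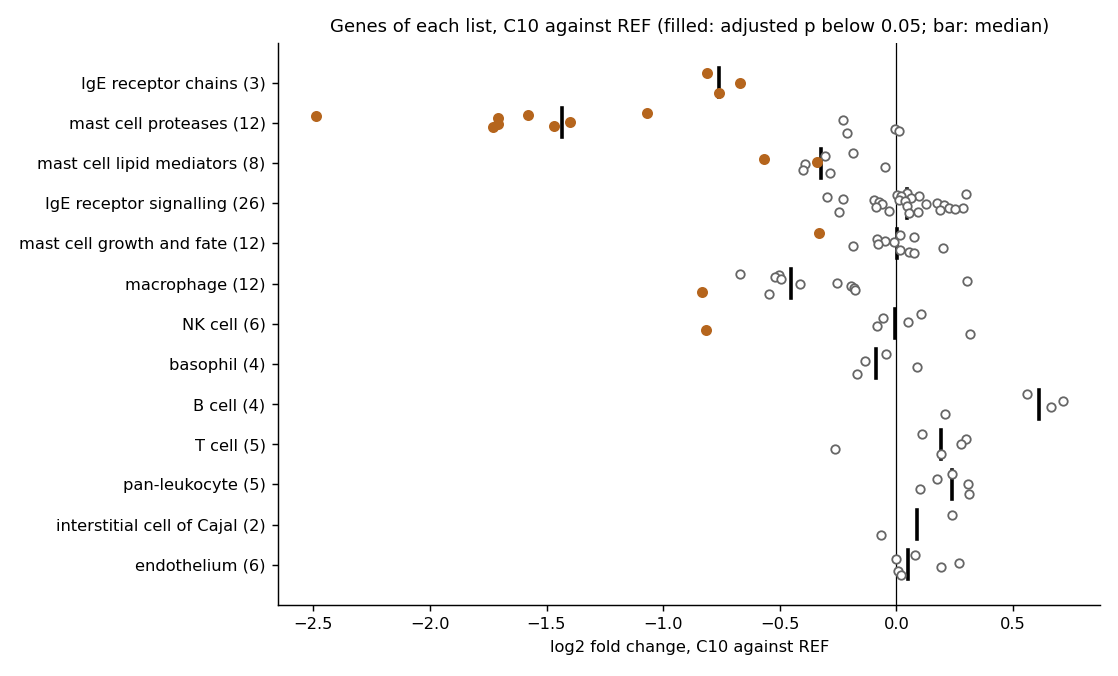
Log2 fold change in C10 against REF (horizontal axis) of each tested gene in 13 lists, with the number of genes in brackets. Each point is 1 gene, filled where the adjusted p was below 0.05, and the bar is the list's median. The IgE receptor chains and 8 of the 12 proteases are filled and negative, whereas the 26 signalling genes lie around 0.

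Across the 16 rats the members fell into patterns that their classes did not give. The following are Pearson correlations over 16 rats, described without a test, since the diets themselves and the arrays are shared by all points. Fcer1a ran with Hdc (r = 0.90), Fcgr3a (0.80), Fcer1g (0.79) and Ms4a2 (0.75), but not with Kit (0.12), Il1rl1 (-0.007) or Syk (0.29). When each rat was taken as its deviation from its diet's mean, Fcer1a and Hdc gave 0.36 and Fcer1a and Ms4a2 -0.032, both lower than over all rats. Within diets, the values of Fcer1a farthest from 0 were those with Syk (0.58) and Kit (-0.53). Gata2 kept its likeness to Ms4a2 (0.82 over 16 rats and 0.74 within diets) and to Fcer1g (0.80 and 0.71).

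Among 11919 other genes with a symbol, the 10 most like Fcer1a were Hdc, Slamf9, Cma1, Sytl3, Paqr6, Sectm1a, P2ry13, Ap1s2, Ccl11 and Ppt1, with r from 0.90 to 0.85. Cma1 is a mast cell chymase and Ccl11 is eotaxin, which draws eosinophils. Within diets the 5 most like it were Klhdc9, Rpl30, Ifitm1, Dtx4 and Ccr2 (r from 0.87 to 0.83), none of them on the former list. The 3 genes most like Hdc were Mcpt1 (0.97), Mcpt10 (0.96) and Mcpt8l2 (0.95), all mast cell proteases. Within diets the 3 most like Hdc were others, Heatr1 (0.95), Bcl3 (0.94) and Rps19 (0.90). The r of Hdc with the mean of 12 mast cell proteases was 0.97 over 16 rats and 0.75 within diets. The endothelial mean gave -0.14 and 0.87, that of regulatory T cells and ILC2 0.19 and 0.71, and that of NK cells 0.59 and 0.67. The likeness of Hdc within diets was thus not particular to the proteases. Ms4a2 was nearest to Gsta3 (0.94), Cpa3 (0.93), the mast cell carboxypeptidase, and Cst3 (0.89). Fcgr3a was nearest to Slamf9, Gsta3 and Mcpt8l2 (0.88 to 0.87). With the mean of the mast cell proteases, Fcgr3a gave 0.85 over 16 rats but -0.017 within diets, and Ms4a2 gave 0.85 and 0.30. Within diets Ms4a2 gave 0.85 with the enteroendocrine mean and 0.74 with the epithelial mean.

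The genes nearest to the other members were of other kinds. Fcer1g was nearest to Cst3 (0.97), Adgre1 (0.93) and C1qc (0.92), and the latter pair are macrophage genes. Its r with the mean of 12 macrophage genes was 0.92 over 16 rats and 0.77 within diets. Syk was nearest to the leukocyte genes Hcls1 (0.99), Rac2 (0.99) and Lcp1 (0.98), and its r with the mean of 5 pan-leukocyte genes was 0.97 over 16 rats and within diets alike. The B cell mean gave 0.92 with Syk. Kit was nearest to Copb1, Il17re and Slc4a2 (0.89 to 0.86). It gave 0.73 with the mean of 5 enteroendocrine genes and 0.69 with that of 7 epithelial genes, but 0.33 with the mast cell proteases. Gata2 was nearest to Clec11a (0.94), Elmod1 and Adra1d, and Il1rl1 to Polr1f (0.81), Grpel2 and Prap1.

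**Figure D4:**
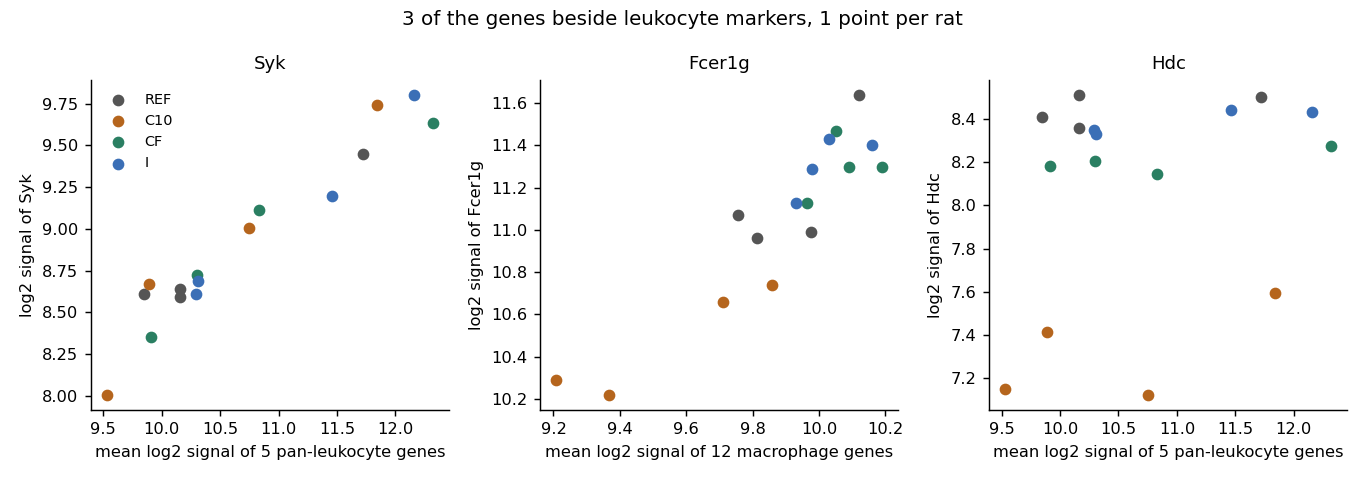
Log2 signal of Syk, Fcer1g and Hdc (vertical axes) against the mean log2 signal of marker genes (horizontal axes), 1 point per rat, coloured by diet. Syk follows the 5 pan-leukocyte genes on every diet (r = 0.97), and Fcer1g follows the 12 macrophage genes (r = 0.92). Hdc separates the C10 rats at any leukocyte level.

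The size of the fall, more than its direction, depended on how background was removed. An offset of 50 added to every signal pulls dim probes together, and 3 of the 5 genes that fell were dim. Between the treatments, the log2 fold change went from -0.81 to -2.74 for Fcer1a and from -1.09 to -1.58 for Hdc, while Fcer1g stayed between -0.67 and -0.71 and Kit between -0.27 and -0.31. Ratios between the changes of these genes are therefore not fixed by the data.

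**Figure D5:**
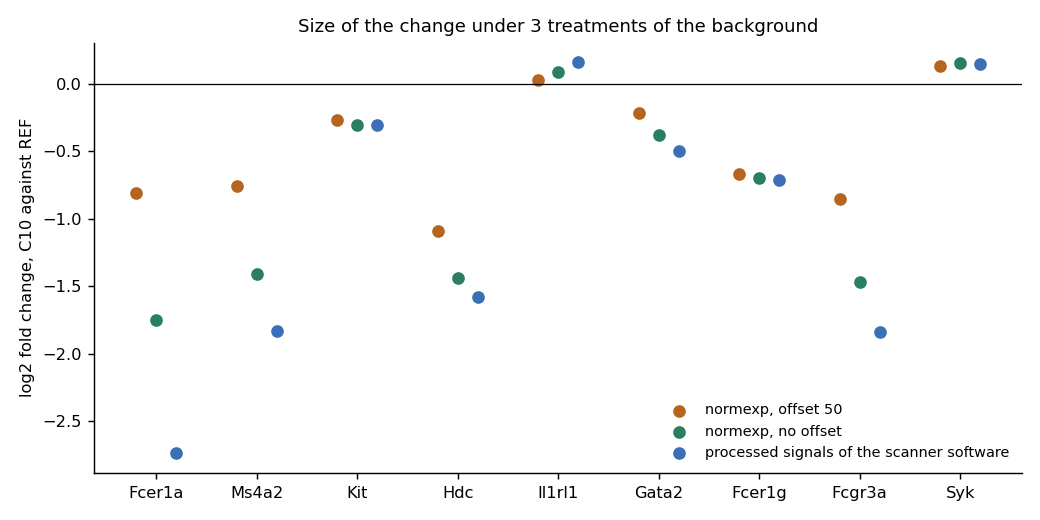
Log2 fold change in C10 against REF (vertical axis) of the 9 genes under 3 treatments of the background. The dim probes of Fcer1a, Ms4a2 and Fcgr3a spread from about -0.8 to -1.8 or lower, whereas the bright probe of Fcer1g stays near -0.7.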

How the data were processed

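The authors deposited the scanner output of Agilent Feature Extraction (version 10.7.3.1): unnormalized median intensities of the spots and their surroundings in both dyes, and processed intensities, used in 1 alternative. The deposited table of normalized log2 values was not used here, because its 8 columns match no sample label. Intensities were corrected with limma 3.58.1 in R 4.3.3 (normexp, offset 50), then by spatial loess (span 0.4), intensity loess (span 0.3) and Aquantile, steps that the methods name without offset and spans. Flagged spots were left out and spots of a probe averaged. A probe was kept where 4 or more of the 16 rats had it well above background. Each gene was read from its brightest probe and named through its accession.

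Diet and dye were fixed terms, and the array was a block (correlation 0.42). The fit was tested on simulated data. Members, gene lists and tests were chosen with earlier results of these data known. The text names all 9 members, the called genes of 24 lists (up to 4 per list), defining markers and the genes most like each member. A few further list genes were named after their values were seen. The labels give separate rats, and their number limits the precision.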

Additional observations from a re-analysis of the deposited data

Results flagged for a closer look

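Of 36 groups of 4 rats (9 genes on 4 diets), 1 held a rat that stood apart from the other 3. REF rat 3 had a Syk signal of 9.45, against 8.59 to 8.64 in the other REF rats. The gap made up a share of 0.949 of the group's range. Chance marks about 1 group in 20 in this way. The same rat had a mean of 11.7 over 5 pan-leukocyte genes, against 9.85 to 10.2 in the other REF rats; the part of leukocyte content in its Syk signal was not tested.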

How the results depend on the processing

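Direction was kept in every setting by the 5 genes that fell and by Kit and Gata2. A fit of the log-ratios within arrays, which has fewer values, called 0 of all 19901 genes, and thus 0 members, in C10 against REF, CF and I. In each, 6 of the 9 had an unadjusted p below 0.05, where 2632, 1771 and 1467 of all genes did. The changes against REF in this fit were -1.03 for Hdc (limma adjusted p 0.056) and -0.75 for Fcer1a (0.193). Without the array block, 3 members passed against REF (Fcer1a, Fcgr3a and Hdc) and 1 against CF (Hdc). Without the dye term 2 passed against CF, and with the array set as a term 2 against CF and 2 against I. Leaving out 1 rat gave 4 to 5 members against REF, 1 to 5 against CF and 2 to 5 against I, and 0 in the comparisons without C10. The call of Fcer1g was lost in 20 of 30 settings, among them rank product (adjusted p 0.067). The sign of Il1rl1 turned without normalization between arrays (-0.042), with the mean over its probes (-0.059), with log-ratios (-0.12), with the array set (-0.084) and with its other probe (-0.14), and ranged from -0.29 to 0.24 with 1 rat left out. Syk ranged from -0.30 to 0.38 with 1 rat left out and gave -0.023 with 1 other probe. The other probes were added as an alternative after seeing the data. The cause of these shifts was not tested. The replicate numbers only name rats within a diet and pair none, whereas the 2 rats of an array are paired through the array block and the log-ratios. Fcer1a and Ms4a2 lay near background in C10 rats, so the lower end of their fall is limited by signal over background.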
